A study of Mus musculus with 9 samples.

Results

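The genes described here encode the core of the spliceosome and the SR proteins of mice. A gene was taken when its 1 symbol on the array began with Srsf, Snrp, Sf3a, Sf3b, Prpf or Lsm followed by a digit or letter, or was U2af1 or U2af2, and 58 of the 19938 genes measured were found in this way. Lsmem1 and Lsmem2, membrane proteins whose symbols share only the letters, leave 56 genes of RNA processing when set aside. Zrsr2, which recognises the end of minor introns and which the same rule names, and Srsf7 were not analysed here, because no probe set with 1 symbol read them. Levels were compared between 3 groups of 3 Affymetrix arrays hybridised with femur marrow RNA of C57BL6 mice. Whole marrow came from 3 wild type mice, lineage-negative marrow from 9 wild type mice in 3 pools of 3 mice, and ERG leukemia from 3 mice carrying an ERG transgene. The transgenic mice were killed once they showed signs of leukemia, and their marrow was used whole. Lineage depletion takes out cells that bear mature blood cell markers. The labels give neither the promoter or species of the transgene nor the age or sex of any mouse.

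Splicing removes introns from precursor RNA. The U1 particle marks the start of an intron, U2AF and the U2 particle with its SF3A and SF3B complexes mark its end and branch point, and a tri-particle of U4, U5 and U6 then joins and is rearranged into the catalytic centre. A ring of Sm proteins sits on most of these small RNAs and a ring of LSm proteins on U6, while SR proteins bind exons and recruit U1 and U2AF. In human myeloid neoplasms SF3B1, SRSF2, U2AF1 and ZRSR2 are recurrently mutated. The arrays read RNA amounts, and neither mutations nor splicing itself was measured.

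Promoter letters are shown because ERG is an ETS factor and many of these genes moved together. RefSeq windows of the mouse build GRCm38.p6, from 250 bases before to 50 bases after a start, were found for 49 of the 58 genes (60 windows). The ETS-type letters CCGGAAGT, on either strand, lay in a window of 10 of the 49 genes (20.4%), against 4.31% of all genes in the table and 6.03% of the genes tested. No share was computed over genes of similar array intensity, so whether the excess is particular to these genes was not tested. The E-box letters CACGTG, of the kind MYC binds and the same on both strands, lay in a window of 4 of the 49 (8.16%), against 8.09% and 9.52%. Neither motif holds the other. A match describes letters in a window and is not evidence of binding. Among the 4 genes shown first with ETS-type letters, Sf3a3 and Sf3b2 were higher in leukemia than in whole marrow and Srsf11 and Srsf5 did not pass the test, and Snrpa shows the E-box. Each stretch is the 120 bases before the start, in the direction of transcription, and capitals mark the motif on either strand.
Sf3a3, chr4:124714741-124714860, plus strand: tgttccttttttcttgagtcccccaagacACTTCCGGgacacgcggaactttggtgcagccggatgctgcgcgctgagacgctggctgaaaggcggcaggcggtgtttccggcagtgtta
Sf3b2, chr19:5295456-5295575, minus strand: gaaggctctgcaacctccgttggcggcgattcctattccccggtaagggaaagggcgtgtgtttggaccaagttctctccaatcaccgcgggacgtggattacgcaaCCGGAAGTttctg
Srsf11, chr3:158031749-158031868, minus strand: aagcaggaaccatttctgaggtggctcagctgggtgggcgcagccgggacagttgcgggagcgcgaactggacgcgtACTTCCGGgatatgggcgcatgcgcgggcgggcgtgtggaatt
Srsf5, chr12:80945379-80945498, plus strand: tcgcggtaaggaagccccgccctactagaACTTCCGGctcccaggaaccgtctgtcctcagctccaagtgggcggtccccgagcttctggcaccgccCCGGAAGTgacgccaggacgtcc
Snrpa, chr7:27195761-27195880, minus strand: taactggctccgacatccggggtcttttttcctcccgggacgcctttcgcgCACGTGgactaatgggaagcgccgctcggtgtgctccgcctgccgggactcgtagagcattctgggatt

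The motif of Sf3a3 began 91 bases before the start, that of Sf3b2 13 bases and that of Srsf11 43 bases before it. Srsf5 held the letters at both 91 and 23 bases, and the E-box of Snrpa began 69 bases before the start. Of the 10 genes with ETS-type letters, 5 were higher in leukemia than in whole marrow (Prpf6, Sf3a1, Sf3a3, Sf3b2 and Snrpe), against 23 of the 49 genes with a window. Of the 4 genes with an E-box, 1 (Snrpa) was higher.

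The arrays were alike in overall signal, with a median intensity of 32.3 to 34.4, and arrays of 1 group correlated at 0.971 to 0.995 over all genes. All 3 group means lay above the overall median of 33.4 for 54 of the 58 genes, and Lsmem1, Lsmem2, Srsf12 and Prpf40b were the other 4. The probe set of mouse Erg, which need not read the transgene, was lower in leukemia than in whole marrow by 0.91 ± 0.18 on the log2 scale (SE, limma adjusted p = 0.00739), so it does not check the labels. Nothing in the labels says how the mice of a group were related, and p-values measure only the spread between these arrays, of which 3 are pools.

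The cell makeup of the groups differed, and its part in the results below was not tested. Summed over 11 mature neutrophil markers, intensity was 38096 to 45263 in whole marrow, 15848 to 22989 in leukemia and 749 to 2347 in lineage-negative marrow. B cell markers (9 measured) summed to 1262 to 5120, 402 to 570 and 324 to 490 in the same order, and Ebf1, Pax5, Igll1, Vpreb1 and Vpreb3 were below the median intensity in leukemia. T and NK cell markers (7) summed to 479 to 565, 176 to 251 and 219 to 301, erythroid markers (8) to 1207 to 3539, 3665 to 7160 and 3873 to 5518, and stem and progenitor markers (8) to 1329 to 1616, 1609 to 2600 and 2888 to 4085. Sums of 6 monocyte and macrophage markers were 1106 to 1914, 688 to 1811 and 399 to 666, and sums of 5 megakaryocyte markers were 647 to 771, 632 to 2323 and 2104 to 3535. Such sums follow the brightest markers, and single markers went both ways in leukemia minus whole marrow. Among stem and progenitor markers Gata2 differed by 3.13 and Cd34 by -0.99 on the log2 scale, with a median of -0.30 over the 8. Among megakaryocyte markers Gp5 differed by 2.95 and Gp9 by -1.07, with a median of 0.50. The 30 DNA replication genes, which mark dividing cells, summed to 9846 to 11385, 15341 to 15901 and 16675 to 19761, with no overlap between groups. In such bulk samples fewer cells of a type and less RNA per cell cannot be told apart.

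Most splicing genes were lowest in whole marrow, intermediate in ERG leukemia and highest in lineage-negative marrow. This order of group means held for 42 of the 58 genes (72.4%), against 23.4% of all genes and 37.2% of the bright genes, the 11001 with a group mean above the median intensity. No splicing gene had its lowest mean in leukemia and its highest in whole marrow, against 15.1% of all genes and 12.3% of the bright ones. Centred on each gene's mean over the 9 arrays, the median splicing gene lay at -0.28, -0.40 and -0.25 on the whole marrow arrays, 0.06, 0.10 and 0.03 on the leukemia arrays and 0.19, 0.33 and 0.16 on the lineage-negative arrays, on the log2 scale. The 3 groups therefore did not overlap in this median. The 3 pairwise comparisons share arrays and are not independent of each other, so each is given with its own values.

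**Figure D1:**
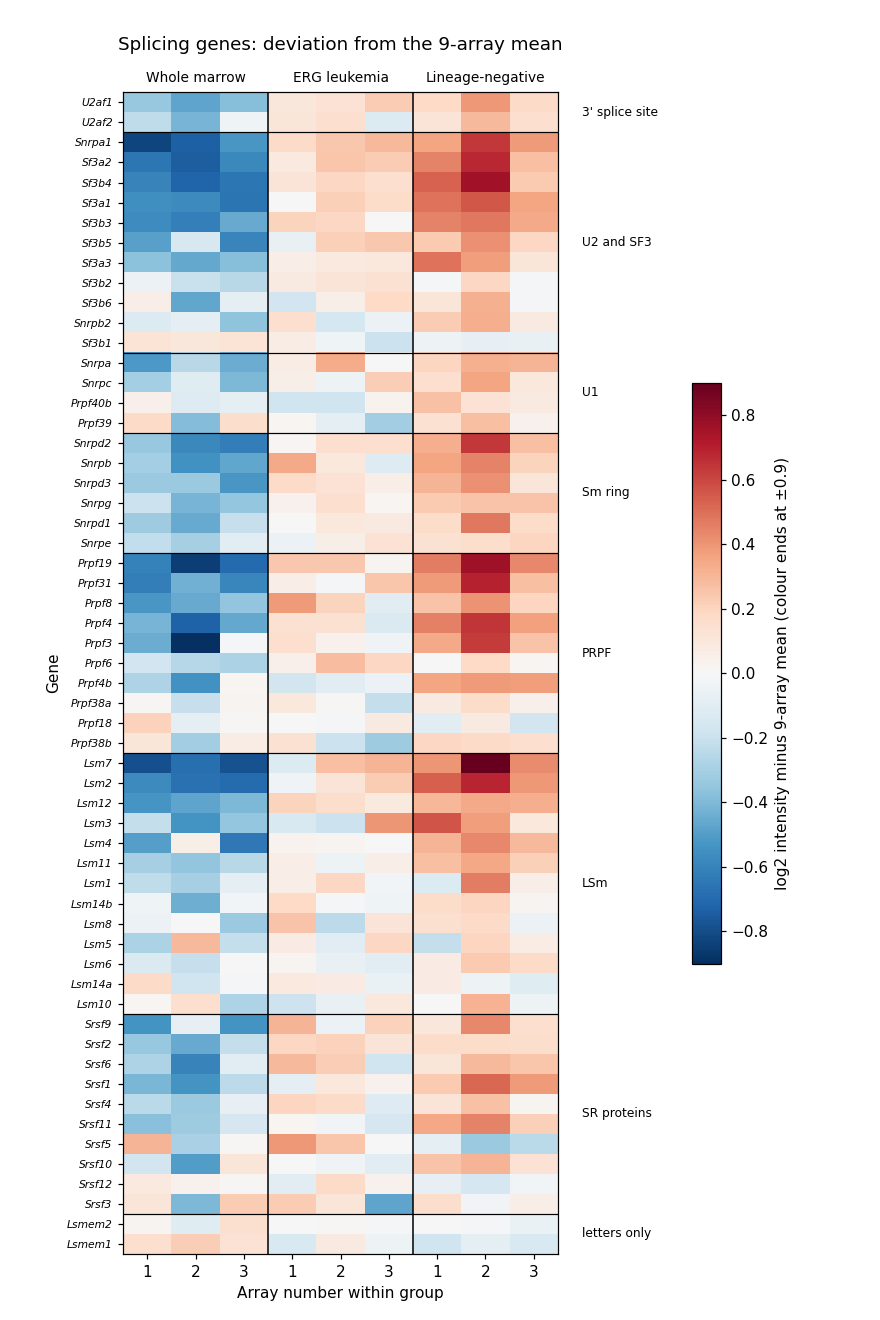
Deviation of each of the 58 genes (rows, by role group) from its own 9-array mean, as log2 intensity, on each array (columns, array number within group). Blue is below and red above the gene's mean, with the colour ending at ±0.9; whole marrow is mostly blue and lineage-negative marrow mostly red, and array 2 of the lineage-negative marrow is the highest of its group for 45 genes.

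Against whole marrow, 28 of the 58 splicing genes were higher in ERG leukemia and 0 were lower by limma at an adjusted p under 0.05. That is 48.3% called, against 24.5% of all genes in either direction, 14.6% higher and 9.93% lower. Most splicing genes are bright, and of the bright genes 42.2% were called, 26% higher and 16.3% lower. The bright set takes any gene with a group mean above 33.4 and is not matched to the splicing genes in intensity. The median splicing gene measured 7.85 to 8.67 (log2 intensity) on the arrays. No share was computed over genes of similar intensity, here or for the role groups and lists below. The median difference of the 58 genes was 0.37 on the log2 scale, with a range of -0.20 to 0.93, against a median of -0.02 for all genes and 0.08 for the bright ones. All leukemia arrays lay above all whole marrow arrays for 32 genes and below them for 2 (Lsmem1 and Sf3b1), against 19.4% and 17.7% of all genes, 37.1% in all, and 32.9% and 22% of the bright genes. With arrays centred on their 75th percentile 18 of the 58 genes were higher and 0 lower, and with cyclic loess 19 were higher and 1 (Sf3b1) lower. Over all genes, the split was 2901 higher and 1980 lower, 2215 and 2431 with that centring, and 2174 and 2428 with loess.

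**Figure D2:**
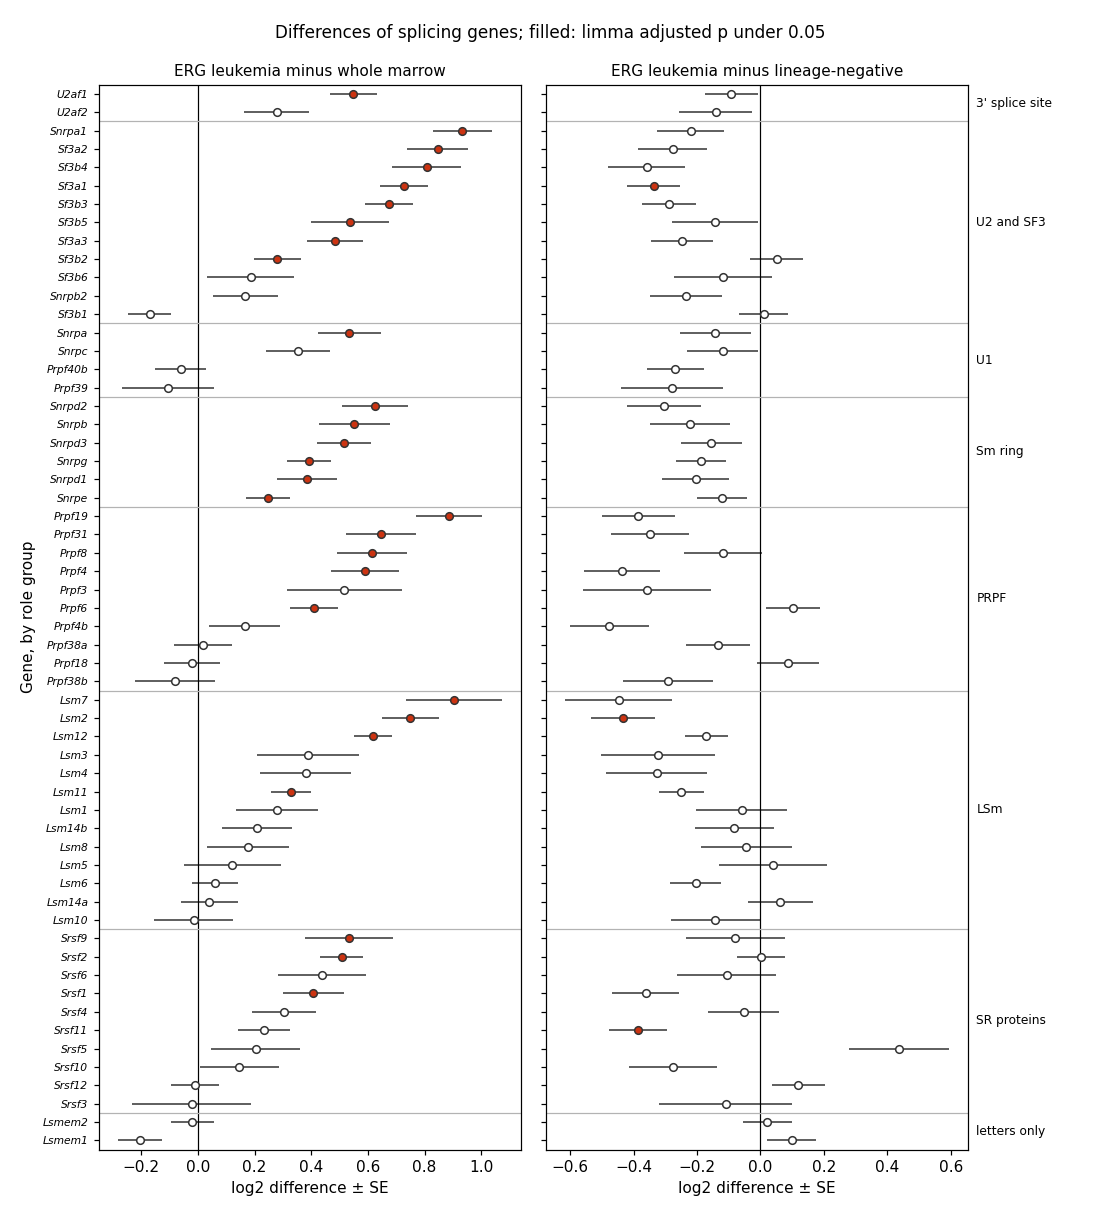
Log2 difference ± SE (horizontal axes) of each gene, by role group, for leukemia minus whole marrow (left) and leukemia minus lineage-negative marrow (right). Filled points have a limma adjusted p under 0.05; the 28 filled points on the left all lie above 0 and the 3 on the right (Sf3a1, Lsm2 and Srsf11) all lie below 0.

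The factors that recognise the end of the intron, U2af1 and U2af2, form the U2AF pair. U2af1, which reads the terminal AG, measured 7.68, 7.55 and 7.64 in whole marrow, 8.12, 8.15 and 8.25 in leukemia and 8.20, 8.41 and 8.19 in lineage-negative marrow (log2 intensity). Leukemia and whole marrow did not overlap, while leukemia and lineage-negative marrow did. The difference of leukemia minus whole marrow was 0.55 ± 0.08 (SE, n = 3 per group, limma adjusted p = 0.00261), a fold of 1.46. Against lineage-negative marrow it was -0.09 ± 0.08 (limma adjusted p = 0.626), with a 95% interval of -0.28 to 0.10. U2af2, which binds the pyrimidine tract before the AG, measured 8.48, 8.29 and 8.67 in whole marrow, 8.82, 8.86 and 8.59 in leukemia and 8.83, 9.00 and 8.86 in lineage-negative marrow. The third leukemia lay below the highest whole marrow array, and the difference of 0.28 ± 0.12 did not pass (limma adjusted p = 0.121). Its interval was 0.02 to 0.54.

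**Figure D3:**
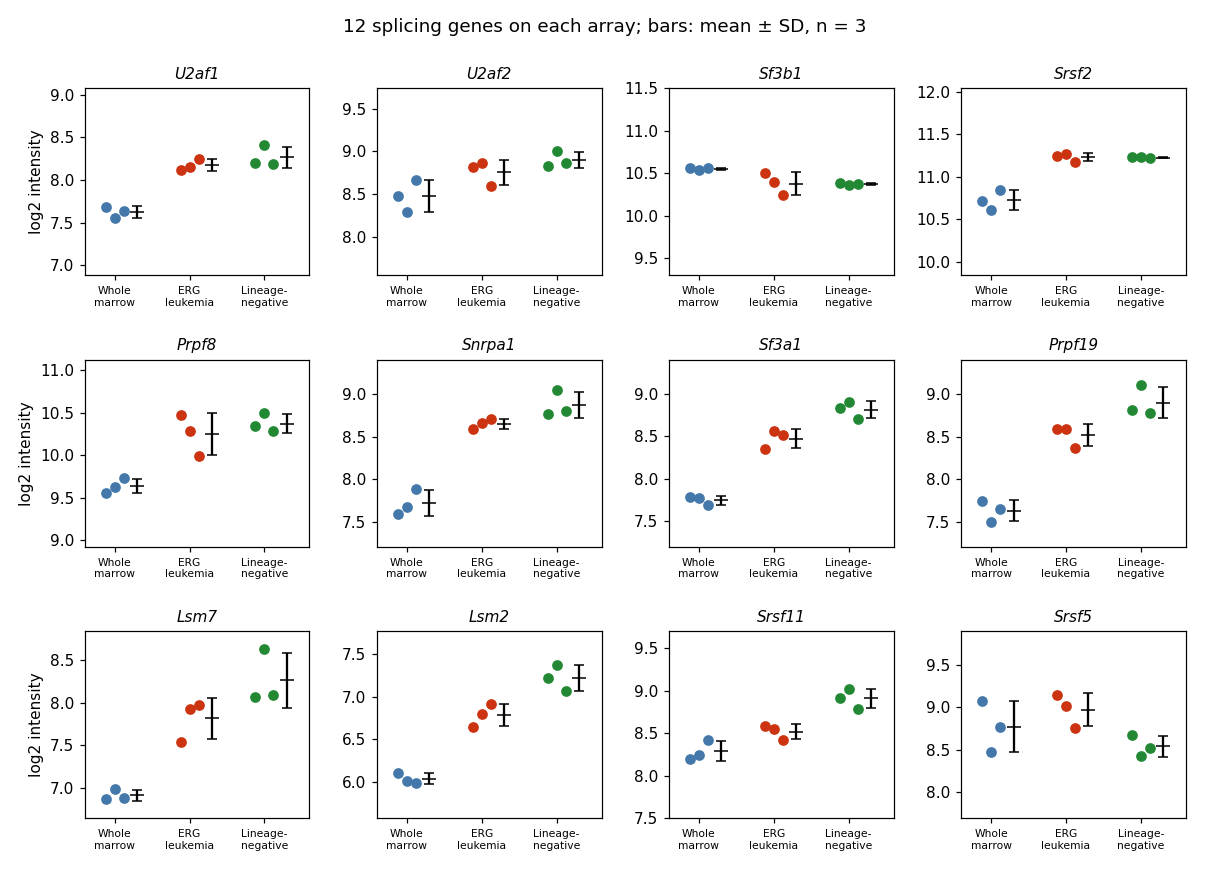
Log2 intensity (vertical axes, each spanning the same number of log2 units) of 12 splicing genes on each array of whole marrow, ERG leukemia and lineage-negative marrow; bars are the mean ± SD of 3 arrays. In leukemia U2af1 sat between 8.12 and 8.25, above the whole marrow arrays, whereas Sf3b1 sat between 10.24 and 10.50, below the whole marrow arrays at 10.54 to 10.56.

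The U2 particle and its SF3 complexes, which hold the branch point, had 8 of 11 genes higher in leukemia than in whole marrow. That is 72.7%, against 26% of bright genes, and the median was 0.54. Snrpa1, a protein specific to the U2 particle, had the highest difference of all splicing genes. It measured 7.59, 7.68 and 7.89 in whole marrow, 8.59, 8.66 and 8.71 in leukemia and 8.77, 9.05 and 8.80 in lineage-negative marrow. Mean intensity went from 210.9 to 402.6, a difference of 0.93 ± 0.10 (SE, limma adjusted p = 0.000957). Every leukemia array lay between the whole marrow and the lineage-negative arrays. Sf3a1, the largest subunit of SF3A, measured 7.79, 7.77 and 7.69 in whole marrow, 8.35, 8.56 and 8.51 in leukemia and 8.83, 8.90 and 8.70 in lineage-negative marrow. It rose against whole marrow by 0.73 ± 0.09 (limma adjusted p = 0.00107), and the 3 groups did not overlap. The other SF3A subunits rose as well, Sf3a2 by 0.85 and Sf3a3 by 0.48.

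In SF3B, the complex that clamps the branch point, Sf3b4, Sf3b3, Sf3b5 and Sf3b2 were higher, by 0.81, 0.67, 0.54 and 0.28. A second probe set of Sf3b4, dimmer than the median intensity, gave 0.25. Among the called SF3B genes, Sf3b2 had the smallest difference. It measured 7.32, 7.17 and 7.12 in whole marrow, 7.45, 7.49 and 7.51 in leukemia and 7.36, 7.56 and 7.36 in lineage-negative marrow. Its adjusted p of 0.0399 (limma) was between 0.0318 and 0.124 when 1 array was left out, and the call was lost without whole marrow 2 or 3, without lineage-negative 1 or 3, or without any leukemia. Sf3b5 lost its call without whole marrow 1 or 3 or without leukemia 2 or 3. Both also lost it with 75th percentile centring and with loess, which left 6 of the 11 genes higher, and Sf3b2 lost it with bright genes only, with trended robust variance and with the 2 groups fitted alone. Sf3b1, the large scaffold of the complex, went the other way. It measured 10.56, 10.54 and 10.56 in whole marrow, 10.50, 10.40 and 10.24 in leukemia and 10.39, 10.36 and 10.37 in lineage-negative marrow. Both other groups lay below whole marrow on every array, yet neither difference passed, at -0.17 ± 0.08 for leukemia (limma adjusted p = 0.155) and -0.18 ± 0.08 for lineage-negative marrow (limma adjusted p = 0.107). With cyclic loess the differences were -0.33 (limma adjusted p = 0.0146) and -0.35 (limma adjusted p = 0.00758), and with 75th percentile centring the second was -0.30 (limma adjusted p = 0.0451). Sf3b6 and Snrpb2, which contact the branch point and the U2 RNA, differed by 0.19 and 0.17 and did not pass.

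Of the 4 genes taken by the rule for proteins of the U1 particle or bound to it, Snrpa alone was higher. That is 25%, near the 26% of bright genes. The U1 protein Snrnp70, whose symbol the rule does not take, was higher too, by 0.32 ± 0.08 (limma adjusted p = 0.0233). Snrpa, which binds the U1 RNA, measured 7.76, 8.03 and 7.83 in whole marrow, 8.34, 8.61 and 8.27 in leukemia and 8.47, 8.60 and 8.58 in lineage-negative marrow. Its leukemia arrays lay above all whole marrow arrays and overlapped the lineage-negative ones, and it rose by 0.53 ± 0.11 (limma adjusted p = 0.00903). The call was lost with 75th percentile centring (0.45, limma adjusted p = 0.0562) and with loess (0.34, limma adjusted p = 0.0936). Snrpc, the protein that steadies U1 on the start of the intron, just missed, at 0.35 ± 0.11 (limma adjusted p = 0.0502). Prpf39 and Prpf40b differed by -0.11 and -0.06 and did not pass.

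All 6 measured proteins of the Sm ring, Snrpb, Snrpd1, Snrpd2, Snrpd3, Snrpe and Snrpg, were higher in leukemia than in whole marrow. That is 100%, against 26% of bright genes, and the median was 0.45. All leukemia arrays lay above all whole marrow arrays for each of the 6, against 32.9% of bright genes. The largest difference was in Snrpd2, which measured 8.16, 7.92 and 7.88 in whole marrow, 8.52, 8.65 and 8.65 in leukemia and 8.83, 9.14 and 8.77 in lineage-negative marrow. It rose by 0.62 ± 0.12 (limma adjusted p = 0.00597), and its 5 probe sets ranged from 0.45 to 0.67. The smallest was in Snrpe, which measured 9.31, 9.23 and 9.43 in whole marrow, 9.48, 9.58 and 9.66 in leukemia and 9.67, 9.69 and 9.72 in lineage-negative marrow. Its difference of 0.25 ± 0.08 passed narrowly (limma adjusted p = 0.048). Without 1 array its adjusted p ran from 0.0406 to 0.151, and it passed only without whole marrow 3 or leukemia 1. Snrpd1 lost its call without whole marrow 1 or 2 or leukemia 2 or 3. With 75th percentile centring, and again with loess, 3 of the 6 passed.

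Among the PRPF factors, which build the tri-particle and drive the catalytic steps, 5 of 10 were higher, with a median of 0.46. That is 50%, against 26% of bright genes. Prpf19, the ubiquitin ligase of the complex that activates the spliceosome, measured 7.74, 7.50 and 7.65 in whole marrow, 8.59, 8.59 and 8.37 in leukemia and 8.81, 9.11 and 8.78 in lineage-negative marrow. It rose by 0.89 ± 0.12 (limma adjusted p = 0.00145), with the 3 groups apart on every array. Prpf8, the scaffold of the catalytic centre, measured 9.56, 9.63 and 9.73 in whole marrow, 10.47, 10.29 and 9.99 in leukemia and 10.34, 10.49 and 10.28 in lineage-negative marrow. The leukemias spread widely but all lay above whole marrow, and Prpf8 rose by 0.61 ± 0.12 (limma adjusted p = 0.00805). Prpf6, a bridge within the tri-particle, measured 7.03, 6.95 and 6.92 in whole marrow, 7.25, 7.48 and 7.39 in leukemia and 7.21, 7.38 and 7.22 in lineage-negative marrow. It rose by 0.41 ± 0.09 (limma adjusted p = 0.00933), the smallest called difference of the group, and did not pass with 75th percentile centring or loess. Prpf31 and Prpf4, proteins of the U4 and U6 part, rose by 0.65 and 0.59. Prpf3, their neighbour, had a similar difference of 0.52 ± 0.20 but a wide whole marrow spread (6.77 to 7.67) and did not pass (limma adjusted p = 0.103). The kinase Prpf4b and the later factors Prpf18, Prpf38a and Prpf38b differed by -0.08 to 0.17 and did not pass.

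The LSm genes were the most mixed by function, and 4 of 13 were higher (30.8%), with a median of 0.28. That share is near the 26% of bright genes that were higher. Lsm2 and Lsm7 are shared by the nuclear ring on U6 and the cytoplasmic ring that promotes removal of the mRNA cap. Lsm7 measured 6.87, 6.98 and 6.88 in whole marrow, 7.54, 7.93 and 7.97 in leukemia and 8.06, 8.63 and 8.09 in lineage-negative marrow, and rose by 0.90 ± 0.17 (limma adjusted p = 0.0057). Its second probe set gave 0.96. Lsm2 measured 6.11, 6.01 and 5.99 in whole marrow, 6.65, 6.80 and 6.91 in leukemia and 7.22, 7.37 and 7.07 in lineage-negative marrow, and rose by 0.75 ± 0.10 (limma adjusted p = 0.0016). For both genes the 3 groups were apart on every array. Lsm12, which carries an LSm domain outside these rings, rose by 0.62 ± 0.07 (limma adjusted p = 0.000836). Lsm11, a protein of the U7 particle that trims histone RNA, measured 5.32, 5.27 and 5.37 in whole marrow, 5.68, 5.58 and 5.68 in leukemia and 5.89, 5.97 and 5.84 in lineage-negative marrow. It rose by 0.33 ± 0.07 (limma adjusted p = 0.01), and its call was lost with 75th percentile centring. Lsm10, its partner in U7, differed by -0.01 ± 0.14 and did not pass. The other ring members, Lsm1, Lsm3, Lsm4, Lsm5, Lsm6 and Lsm8, differed by 0.06 to 0.39, and the decay factors Lsm14a and Lsm14b by 0.04 and 0.21, none of them passing. The 3 probe sets of Lsm6 gave 0.06, 0.02 and -0.24 and thus disagreed in sign.

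Of the 10 SR proteins, 3 were higher (30%), a share near the 26% of bright genes, with a median of 0.27. Srsf2, which binds exons and is mutated in human myeloid disease, measured 10.72, 10.61 and 10.85 in whole marrow, 11.25, 11.27 and 11.18 in leukemia and 11.23, 11.23 and 11.22 in lineage-negative marrow. It rose against whole marrow by 0.51 ± 0.08 (limma adjusted p = 0.00248). Against lineage-negative marrow its difference was 0.00 ± 0.08 (limma adjusted p = 0.994), with an interval of -0.17 to 0.18. Srsf9 measured 7.83, 8.29 and 7.83 in whole marrow, 8.67, 8.31 and 8.57 in leukemia and 8.47, 8.80 and 8.52 in lineage-negative marrow. The second whole marrow array came close to the lowest leukemia, and the rise of 0.53 ± 0.16 (limma adjusted p = 0.0366) was lost without whole marrow 1 or 3, without lineage-negative 3, or without leukemia 1 or 3 (limma adjusted p up to 0.118). Srsf1, the founding SR protein, measured 8.85, 8.73 and 9.03 in whole marrow, 9.18, 9.36 and 9.30 in leukemia and 9.50, 9.78 and 9.65 in lineage-negative marrow. It rose by 0.41 ± 0.11 (limma adjusted p = 0.0231), with the 3 groups apart, and lost its call without whole marrow 1 or 2 or leukemia 2 or 3 (limma adjusted p up to 0.0703). With 75th percentile centring or loess 1 SR protein, Srsf2, passed.

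The other 7 SR proteins did not pass. Srsf6, Srsf4 and Srsf11 differed by 0.44, 0.30 and 0.23. Srsf5 and Srsf10 differed by 0.20 and 0.15, and a second, dimmer probe set of Srsf10 gave 0.47. Srsf3 measured 10.76, 10.25 and 10.88 in whole marrow, 10.88, 10.76 and 10.18 in leukemia and 10.81, 10.63 and 10.71 in lineage-negative marrow, so 1 low array in each of the first 2 groups gave it the widest error of all splicing genes (-0.02 ± 0.21). Its 3 probe sets gave -0.04 to -0.01. Srsf12 lay below the median intensity on all arrays.

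Against lineage-negative marrow, the wild type fraction enriched for progenitors, 0 splicing genes were higher in leukemia and 3 were lower by limma at an adjusted p under 0.05. That is 5.17% called, against 8.69% of all genes in either direction, 2.95% higher and 5.74% lower, and against 14.7% of the bright genes. Sf3a1, with the values above, fell by 0.34 ± 0.09 (limma adjusted p = 0.0445) and Lsm2 fell by 0.43 ± 0.10 (limma adjusted p = 0.0338). Srsf11 measured 8.20, 8.25 and 8.42 in whole marrow, 8.59, 8.55 and 8.42 in leukemia and 8.92, 9.02 and 8.79 in lineage-negative marrow, and fell by 0.39 ± 0.09 (limma adjusted p = 0.037). All 3 were nonetheless higher in leukemia than in whole marrow by their means, Sf3a1 and Lsm2 past the threshold. The calls rest on the settings: 0 remained with 75th percentile centring, loess or a trended, robust variance model. Leaving out whole marrow 1, lineage-negative 1 or 2 or leukemia 1 also gave 0, leaving out leukemia 2 or 3 gave 1, and leaving out whole marrow 2 gave 5.

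Although few passed, most splicing genes lay lower in leukemia than in lineage-negative marrow. The median difference of the 58 genes was -0.16, with a range of -0.48 to 0.44, against 0.01 for all genes and -0.08 for the bright ones. All leukemia arrays lay below all lineage-negative arrays for 27 of the 58 genes, against 16.3% of all genes and 25.5% of the bright ones, and above them for 1, against 11.6% (27.9% in all) and 13%. That 1 gene was Srsf5, which measured 8.67, 8.43 and 8.52 in lineage-negative marrow, 9.15, 9.01 and 8.76 in leukemia and 9.07, 8.47 and 8.77 in whole marrow (chosen after its values were seen). Its difference of 0.44 ± 0.16 did not pass (limma adjusted p = 0.138), and its interval was 0.08 to 0.80. The lowest differences, in Prpf4b (-0.48 ± 0.12, limma adjusted p = 0.0514), Lsm7 (-0.45) and Prpf4 (-0.44, limma adjusted p = 0.0598), did not pass either. By role group the medians were -0.32 for the PRPF factors, -0.23 for U2 and SF3, -0.20 for U1 and for the Sm ring, -0.17 for LSm, -0.12 for U2AF and -0.09 for SR proteins.

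Within wild type mice, 39 of the 58 splicing genes were higher in lineage-negative than in whole marrow and 1 was lower by limma at an adjusted p under 0.05. That is 69% called, against 34.7% of all genes in either direction, 21.7% higher and 13% lower, and against 57.5% of the bright genes, of which 38.2% were higher. The median difference was 0.56, with a range of -0.30 to 1.35, against -0.04 for all genes and 0.20 for the bright ones. All lineage-negative arrays lay above all whole marrow arrays for 44 splicing genes and below them for 3, against 26.6% and 23.4% of all genes, 50% in all, and 45.1% and 24.5% of the bright genes. The largest differences were in Lsm7 (1.35 ± 0.17, limma adjusted p = 0.000416), Prpf19 (1.27 ± 0.12, limma adjusted p = 0.000112) and Lsm2 (1.18 ± 0.10, limma adjusted p = 9.24e-05). Higher genes made up 2 of 2 in U2AF, 8 of 11 in U2 and SF3, 2 of 4 in U1, 6 of 6 in the Sm ring, 7 of 10 PRPF factors, 7 of 13 LSm and 7 of 10 SR proteins. With 75th percentile centring 30 of the 58 were higher and 2 lower, and with loess 26 were higher and 5 lower (Lsm14a, Lsmem1, Prpf18, Sf3b1 and Srsf5).

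The 1 gene called lower, Lsmem1, is a membrane protein and not a splicing factor. It measured 5.07, 5.14 and 5.05 in whole marrow, 4.74, 4.84 and 4.78 in lineage-negative marrow and 4.78, 5.0 and 4.87 in leukemia. It lay close to the median intensity of all probe sets and fell by 0.30 ± 0.08 (limma adjusted p = 0.0148), a call lost without lineage-negative 1 (limma adjusted p = 0.056).

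Genes around the core, from lists of splicing and RNA processing factors, are given with their counts at a limma adjusted p under 0.05 for leukemia against whole marrow. The counts stand beside the shares given above for all genes (14.6% higher and 9.93% lower) and bright genes (26% and 16.3%). Of 71 other splicing genes measured (76 listed), 31 were higher and 0 lower (43.7% called, against 42.2% of bright genes in either direction), with a median of 0.31. Eftud2, the GTPase of the U5 particle, rose by 0.84 ± 0.12 (limma adjusted p = 0.00193), and Snrnp25, a protein of the minor spliceosome, by 0.84 ± 0.12 (limma adjusted p = 0.00216). With loess the same list had 14 higher and 6 lower, with a median of 0.13. Against lineage-negative marrow 0 were higher and 2 lower (2.82%, against 5.74% of all and 9.62% of bright genes), Luc7l by -0.62 ± 0.12 (limma adjusted p = 0.0173) and Snrnp48 by -0.40 ± 0.08 (limma adjusted p = 0.0228). In lineage-negative against whole marrow 45 were higher (63.4%, against 21.7% of all and 38.2% of bright genes), led by Ddx39a (1.03) and Eftud2 (1.03), and 1, the late factor Slu7, was lower (-0.34 ± 0.10, limma adjusted p = 0.0266).

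The machinery that loads Sm proteins onto small RNAs was higher too. Of 16 snRNP assembly genes 13 were higher and 0 lower in leukemia than in whole marrow (81.2%, against 26% of bright genes higher), with a median of 0.62, and 15 were higher in lineage-negative than in whole marrow (93.8%, against 38.2%). Gemin8 and Gemin5, parts of the SMN complex, rose by 1.23 ± 0.21 (limma adjusted p = 0.00423) and 1.02 ± 0.14 (limma adjusted p = 0.00165). Prmt5, the methyltransferase that modifies Sm proteins before assembly, rose by 0.89 ± 0.10 (limma adjusted p = 0.000857). Against lineage-negative marrow 5 of the 16 were lower (31.2%, against 5.74% of all and 9.62% of bright genes) and 0 higher. These were Gemin6 (-0.81), Gemin5 (-0.65), Prmt5 (-0.52), and the partners of PRMT5 Wdr77 (-0.48) and Clns1a (-0.38). With 75th percentile centring 2 of them were lower and with loess 3.

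Of 15 genes of the exon junction complex and mRNA export, 10 were higher and 0 lower (66.7%, against 14.6% of all and 26% of bright genes higher), with a median of 0.50, and Rnps1, which binds the exon junction complex, rose by 1.13 ± 0.10 (limma adjusted p = 0.000538). Against lineage-negative marrow 1 was lower, the export factor Thoc1 (-0.42 ± 0.10, limma adjusted p = 0.0367). Of 24 hnRNP genes, whose products often oppose SR proteins, 10 were higher and 1 lower (45.8% called, near the 42.2% of bright genes), with a median of 0.26. Hnrnpa0 rose by 0.79 ± 0.09 (limma adjusted p = 0.00104), and Ptbp2 fell by 0.84 ± 0.25 (limma adjusted p = 0.0414). Against lineage-negative marrow 0 hnRNP genes passed. With 75th percentile centring 6 hnRNP genes were higher and 1 lower, and with loess 5 were higher and 2 lower.

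Of the kinases, phosphatase partners and import factors of SR proteins, 2 of 10 were higher and 1 lower, with a median of -0.10. These shares, 20% and 10%, are near the 14.6% and 9.93% of all genes, and bright genes had 26% and 16.3%. Srpk2 and Srpk1 are among the kinases that phosphorylate SR proteins. Srpk2 fell from a mean intensity of 307.8 in whole marrow to 115.0 in leukemia, and was 130.3 in lineage-negative marrow. Its difference of leukemia minus whole marrow was -1.42 ± 0.18 (limma adjusted p = 0.00148), and that of leukemia minus lineage-negative marrow was -0.18 ± 0.18 and did not pass. Srpk1 rose by 0.37 ± 0.11 (limma adjusted p = 0.034), and Ppp1r8, a nuclear inhibitor of protein phosphatase 1, rose by 0.88 ± 0.12 (limma adjusted p = 0.00177). For comparison, 28 of the 30 DNA replication genes were higher in leukemia than in whole marrow and 0 were lower. That is 93.3% higher, against 26% of bright genes, with a median of 0.63.

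**Figure D4:**
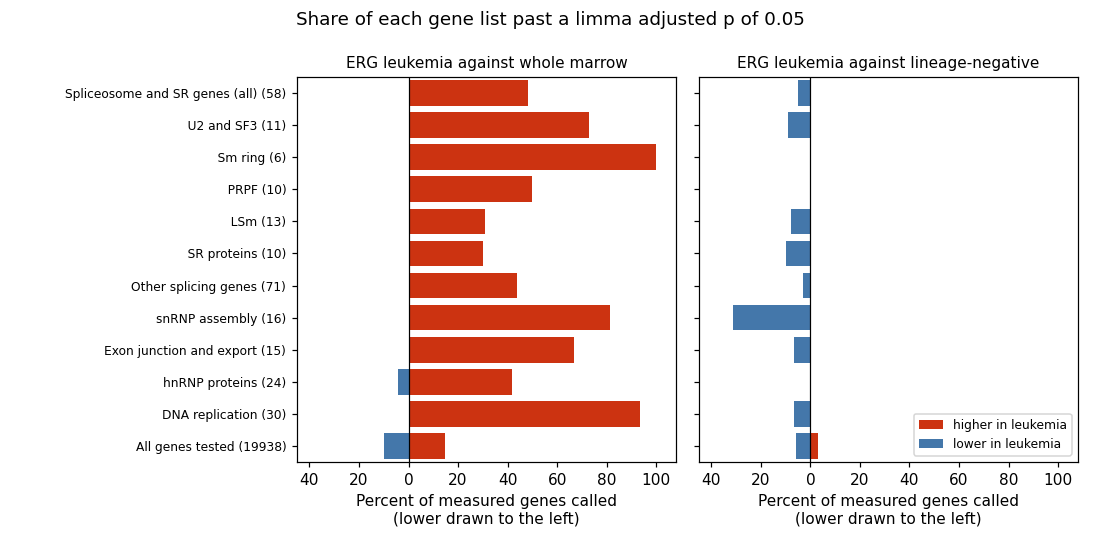
Percent of the measured genes of each list (number in brackets) with a limma adjusted p under 0.05, higher in leukemia drawn to the right and lower to the left, against whole marrow (left panel) and lineage-negative marrow (right panel). Against whole marrow the Sm ring reaches 100% and all genes 14.6% higher; against lineage-negative marrow the snRNP assembly list has the largest share of lower genes shown, 31.2%.

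Within the wild type groups, single arrays were highest or lowest for many splicing genes at once. Array 2 of the lineage-negative marrow held the highest value of its group for 45 of the 58 genes and array 3 the lowest for 36. In whole marrow array 2 was the lowest for 35 genes. The leukemias were more even, highest for 23, 16 and 19 genes and lowest for 21, 9 and 28. The median standard deviation over 3 arrays was 0.12 for leukemia, 0.12 for the lineage-negative pools and 0.13 for whole marrow, against 0.13, 0.10 and 0.13 for all genes and 0.19, 0.14 and 0.17 for the bright ones. The splicing genes thus spread less than the bright genes in each group, and more than all genes in the lineage-negative pools. The bright genes were not matched to the splicing genes in intensity. Without whole marrow 2 the median difference of leukemia minus whole marrow was 0.30, and without lineage-negative 2 that of lineage-negative minus whole marrow was 0.51.

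Genes with the most similar pattern over the 9 arrays were listed for the members mutated in human disease, by Pearson's r over arrays that share the same 3 groups. For U2af1 they were Mrpl52 (0.993), Smu1 (0.992) and Psmd5 (0.991). For Srsf2 they were Lrrc8c (0.994), Car1 (0.993) and Eif3f (0.993). For Sf3b1, which ran opposite to most splicing genes, they were Bpifb9a (0.967), Kansl1 (0.956) and Lgals4 (0.955).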

How the data were processed

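The deposited values are probe set intensity values on a linear scale for 28853 probe sets, which the authors made, per the submitters' processing notes, in Partek by RMA; software versions, genome build and probe letters are not given there. They were log2-transformed with no further normalization. Probe sets with 1 symbol (21789; 1621 had several and 5443 none) were kept, and the one with the highest mean stood for a gene, giving 19938 genes, 19856 of them in the RefSeq table. No filter was set on dim genes. One limma 3.58.1 model (R 4.3.3; lmFit, contrasts.fit, eBayes; 6 residual and 2.62 prior degrees of freedom) of the 9 arrays gave 3 two-sided contrasts, adjusted by Benjamini-Hochberg over all genes, with a threshold of 0.05. The number of arrays limits precision. The script was tested on simulated data. Members, gene lists, markers and motifs were chosen with earlier results of these data known. Genes printed by array were U2af1, U2af2, Sf3b1, Srsf2, Prpf8 and, in each role group, the highest and lowest called difference, plus calls against the common direction; Srsf3 and Srsf5 were added after their values were seen. Of the other splicing genes, the 2 largest called differences in the common direction of each comparison were named, plus any call against it. Snrnp70 was added after its values were seen. Promoter windows and starts are from RefSeq (GRCm38.p6). The alternatives were 75th percentile centring, cyclic loess, bright genes only, mean of probe sets, trended robust variance, log2(value + 16), 2 groups only, leaving out each array, leaving out the 2 membrane genes, and a replicate block. Figures used matplotlib 3.10.9 in Python 3.11.15.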

Additional observations from a re-analysis of the deposited data

How the results depend on the processing

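No difference of a gene printed by array changed sign in its called comparisons: 551 alternative values kept their call and 95 lost it. Of the 28 splicing genes higher in leukemia than in whole marrow, 18 were called under all 17 settings, of the 3 lower than lineage-negative marrow 0, and of the 40 between wild type groups 25 under 18 settings.

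With 75th percentile centring the calls were 18 (18 higher, median 0.283) for leukemia against whole marrow, 0 against lineage-negative marrow, and 2 lower with a median of 0.438 between wild type groups. This centring moved the median of all genes from -0.035 to -0.159 in the last comparison. With cyclic loess leukemia against whole marrow had 1 lower gene and a median of 0.198, leukemia against lineage-negative marrow 0 calls, and the wild type comparison 5 lower and a median of 0.326. Trended robust variance gave 0 calls against lineage-negative marrow, and leaving out the 2 membrane genes gave 0 lower in the wild type comparison.

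Leaving out 1 array gave 23 to 28 calls and medians of 0.303 to 0.373 for leukemia against whole marrow. Against lineage-negative marrow it gave 0 to 5 calls, all lower, with medians of -0.197 to -0.127. Between wild type groups it gave 32 to 39 calls, 0 to 1 of them lower, and medians of 0.507 to 0.583. The titles number both wild type groups, whole marrow from single mice and lineage-negative marrow from pools of 3 mice. Same-numbered arrays correlated in their deviations at 0.312, -0.009 and -0.009, and only number 1 matched its own number best. With 3 arrays a group these values cannot exclude a pairing, and the main model used none. With the replicate block 35 of the 58 genes were called (34 higher and 1 lower, median 0.562), against 40 without it. With 3 arrays a group, the smallest splicing gene difference called in any comparison was 0.248, and the cause of each lost call was not tested.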

Other observations

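Snrpf, the seventh protein of the Sm ring, and Snrpn, a relative of Snrpb from an imprinted locus, were read only by probe sets that carry more than 1 symbol. Neither entered a test. The probe set shared by Snrpf and Gm13092 measured 7.44, 7.49 and 7.54 in whole marrow, 8.04, 8.23 and 8.06 in leukemia and 8.02, 8.27 and 8.09 in lineage-negative marrow (log2 intensity). Its leukemia arrays lay above all whole marrow arrays and overlapped the lineage-negative ones. The probe set shared by Snrpn and Snurf lay between 3.70 and 3.99 on all 9 arrays, below the median intensity.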
